A study of Mus musculus with 2 samples.

Results

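The 33 genes described here are a list of brush border enzymes, transporters and microvillus genes of the small intestine. The list also holds genes whose products act elsewhere in the cell, such as the transcription factor gene Maf and the basolateral carrier gene Slc2a2. The members were chosen by name and make up 33 of the 32285 genes in the count tables, and all 33 were found. The study sorted Tomato+ epithelial cells from mouse small intestine and profiled them by 10x Genomics 3′ single-cell RNA-seq in 2 libraries. Neurog3Cre switches on Rosa26tdtomato in cells that express Neurog3, a factor of endocrine progenitors, and the label stays in their progeny, so the sort holds the traced lineage and not the epithelium at large. The WT library came from Neurog3Cre; Rosa26tdtomato mice and the NFKO library from Neurog3Cre-FoxO1 f/f; Rosa26tdtomato mice, so that both carried the same Cre and reporter and the floxed FoxO1 was in NFKO alone. All mice were 4-6 weeks old, and 4-5 were pooled in each library with no label left to tell them apart.

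With 1 library per genotype there is no replicate and no test, and no p-value is given. A level is a gene's share of all UMIs (unique molecular identifiers, each standing for 1 captured transcript) after adding up the cells of a class, scaled to CPM (counts in each 1000000 UMIs). Ranges in parentheses are exact 95% intervals that cover counting error only and say nothing of the spread between mice. The 3003 WT and 5292 NFKO cells kept had median depths of 16883 and 17039 UMIs, and 6 barcodes occurred in both libraries. The libraries also differed in sex: 2424 WT cells were typed male and 6 female by Y-linked genes and Xist, against 357 and 4359 in NFKO, so genotype and sex cannot be told apart in most cells. Foxo1, the targeted gene, was at 11.6 CPM (10.8-12.3) in WT and 12.4 CPM (11.8-13.1) in NFKO. Reads taken at the 3′ end can lie outside the deleted part of the gene, so this value does not check the labels.

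The brush border is the lawn of microvilli on the apical face of an absorptive enterocyte. Bundled actin held by villin, espin and EPS8 stiffens each microvillus, myosin 1a and ezrin tie the bundle to the membrane, and protocadherins at the tips link neighbouring microvilli into a regular array. Enzymes in that membrane cut disaccharides and peptides, and transporters beside them take up the products. Enterocytes gain these proteins as they leave the crypt and climb the villus, while goblet, Paneth and enteroendocrine cells are secretory and tuft cells carry a bundle of microvilli of their own.

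Cells were grouped into 24 clusters without using any of the 33 genes, and clusters were named from markers that include none of them. Clusters 8 and 13 carried enterocyte markers. Cluster 8 (120 WT and 233 NFKO cells) held 10 of 10 of them, and its leading genes included Enpp7, Apoa4 and Cubn. Cluster 13 (146 WT and 141 NFKO cells) held 5 of 10 and was led by Gsdmc4, Ms4a18 and Car4. Cluster 13 was mixed in its markers. Its enterocyte markers summed to 3502 CPM in WT and 6998 CPM in NFKO, below its goblet markers at 26781 and 13608 CPM. Proliferation markers summed to 207 and 402 CPM there, against 56.9 and 52.7 CPM in cluster 8. Its name rests on the marker rule alone. Clusters 8 and 13 are called enterocyte-like, and other classes are named in the same way. Secretory cells are the goblet-like, Paneth-like and enteroendocrine-like classes as a whole (1949 WT and 3690 NFKO cells). Tuft-like cells (89 and 172) carried all 10 tuft markers, and the stem-like cluster (294 and 187 cells) was led by Olfm4 and also carried 8 of 8 proliferation markers.

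Before the values, the promoters of 3 members with different patterns are shown. Sis encodes sucrase-isomaltase, which cuts sucrose and starch fragments, Lct encodes lactase, the enzyme for milk sugar, and Alpi encodes intestinal alkaline phosphatase. Sis was high in both enterocyte-like and enteroendocrine-like cells, whereas Lct and Alpi were near 0 outside the enterocyte-like class. All 3 lie on the minus strand, Sis on chromosome 3 (gene body 72888557 to 72967863), Lct on chromosome 1 (128284756 to 128328318) and Alpi on chromosome 1 (87098002 to 87101606). The 250 bases before each start are given from RefSeq on GRCm38.p6, at chr3:72967864-72968113 for Sis, chr1:128328319-128328568 for Lct and chr1:87101607-87101856 for Alpi, written 5′ to 3′ on the gene's strand. Capitals mark matches on either strand to 4 motifs that transcription factors of the intestinal epithelium are known to bind. The motif searched for HNF4 was CAAAGTNCA. For HNF1, which binds as a pair, a single arm of the palindrome was searched as GTTAAT. For the CDX factors the letters searched were TTTATG, and for the GATA factors they were AGATAA. The motifs do not overlap in these 3 sequences.
Sis: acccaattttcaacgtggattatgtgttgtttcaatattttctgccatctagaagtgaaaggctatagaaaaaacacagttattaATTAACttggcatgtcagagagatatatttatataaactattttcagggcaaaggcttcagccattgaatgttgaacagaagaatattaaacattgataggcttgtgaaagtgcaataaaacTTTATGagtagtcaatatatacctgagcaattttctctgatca
Lct: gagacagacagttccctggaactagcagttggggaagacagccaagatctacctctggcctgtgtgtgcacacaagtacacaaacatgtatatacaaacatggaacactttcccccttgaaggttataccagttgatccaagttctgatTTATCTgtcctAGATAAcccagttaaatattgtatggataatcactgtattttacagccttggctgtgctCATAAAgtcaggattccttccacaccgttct
Alpi: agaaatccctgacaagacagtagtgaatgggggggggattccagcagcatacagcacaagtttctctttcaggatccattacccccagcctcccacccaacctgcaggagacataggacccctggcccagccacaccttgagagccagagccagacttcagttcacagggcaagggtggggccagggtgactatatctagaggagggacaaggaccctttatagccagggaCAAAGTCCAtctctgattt
In Sis the HNF1 arm began 165 bases before the start and the CDX match 43 before it. In Lct a CDX match lay at 31 bases and GATA matches at 90 and 101. In Alpi the HNF4 match lay at 19 bases. Promoters of 30 members were in the reference table, each 300 bases long with 50 after the start; Mep1b, Eps8 and Maf were not. The HNF4 motif was in 3 of the 30, those of Alpi, Slc3a1 and Treh (10.0%, against 1.41% of 27025 promoters of that length). The HNF1 arm was in 4 of the 30 against 7.20% of all promoters, the CDX motif in 6 against 12.1% and the GATA motif in 7 against 11.4%. A match of letters is a description and not a site of binding.

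Most members were highest in the enterocyte-like class, and by a wide margin. A gene is counted as higher or lower between classes at 2-fold or more, among genes with at least 20 UMIs over both sums. Against secretory cells 28 of 33 members were higher in WT, where 17.9% of all genes were, and 31 of 33 in NFKO, where 14.1% were. Against stem-like cells the counts were 30 of 33 in WT (9.82% of all genes) and 33 of 33 in NFKO (12.9%). Against tuft-like cells 24 members were higher in WT (15.1% of all genes) and 28 in NFKO (15.9%). The median ratio of the members over secretory cells was 8.64 in WT and 15.9 in NFKO, beside 1.09 and 0.844 for all genes.

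**Figure D1:**
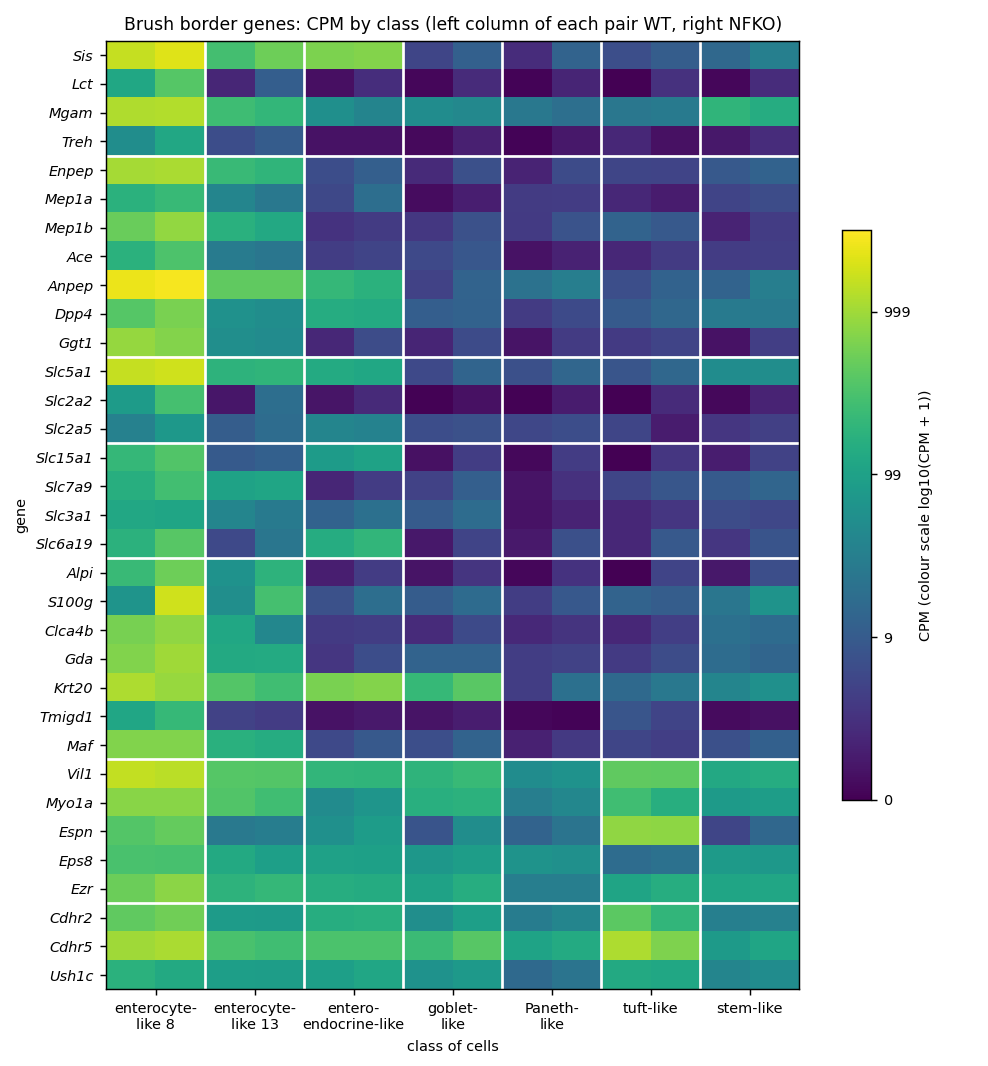
Level of each of the 33 genes in CPM (colour, on a log10(CPM + 1) scale) in 7 classes of cells, with WT at the left and NFKO at the right of each pair, and white lines between roles. Cluster 8 is the brightest column for most genes, Sis and Krt20 are also bright in enteroendocrine-like cells, and Espn and Cdhr5 in tuft-like cells.

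The secretory classes were not alike. In Paneth-like cells every member was at least 2-fold below the enterocyte-like level, in both libraries, but 69.0% and 64.7% of all genes were as well. In goblet-like cells 30 of 33 were below it in each library (16.8% of all genes in WT and 19.4% in NFKO), and Cdhr5, Ush1c and Krt20 were the exceptions in both. In enteroendocrine-like cells the number was 21 in WT (12.4% of all genes) and 24 in NFKO (12.7%), and in WT 3 members were 2-fold or more higher in enteroendocrine-like than in enterocyte-like cells, a direction that 41.7% of all genes took. Those 3 were Slc2a5, Slc15a1 and Slc6a19, all transporters. Most WT enterocyte-like UMIs come from cluster 13. In WT cluster 8 alone Slc15a1 was at 212 CPM and Slc6a19 at 178 CPM, above their 82.8 and 144 CPM in enteroendocrine-like cells. Slc2a5 was at 33.2 CPM in WT cluster 8 and 37.9 CPM in enteroendocrine-like cells.

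The 4 disaccharidases split into those found in enterocyte-like cells and those found elsewhere too. Lct was at 122 CPM (96.0-152) in WT and 374 CPM (354-395) in NFKO cells of cluster 8, at 1.40 and 10.0 CPM in cluster 13, and at or below 2.15 CPM in every other class described here. Treh, trehalase, was at 50.5 and 124 CPM in cluster 8 and at or below 1.78 CPM in the enteroendocrine-like, goblet-like, Paneth-like, tuft-like and stem-like classes. Mgam, maltase-glucoamylase, was at 1222 CPM in WT and 1249 CPM in NFKO cells of cluster 8 and at 256 and 209.5 CPM in cluster 13. In stem-like cells Mgam stood at 196 CPM (189-204) and 146 CPM (139-154), above its 17.7 to 53.9 CPM in the tuft-like and secretory classes of both libraries. Its enterocyte-like level in WT was only 1.75 times (1.65-1.84) the stem-like level.

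Sis was the disaccharidase with the widest reach. It was at 1553 CPM (1457-1653) in WT and 2156 CPM (2108-2205) in NFKO cells of cluster 8, and at 284 and 533 CPM in cluster 13. In enteroendocrine-like cells it was at 654 CPM (639-670) and 708 CPM (698-718). Goblet-like, Paneth-like and tuft-like cells held 1.80 to 12.1 CPM, and stem-like cells 14.3 and 31.1 CPM. The WT enterocyte-like class as a whole, most of whose UMIs come from cluster 13, was at 0.608 times (0.581-0.635) the enteroendocrine-like level.

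To compare shares of cells across depths, each cell was thinned to 2000 UMIs and shallower cells were left out. Sis then had a UMI in 52.0% (48.6-55.4) of 846 WT and 54.7% (52.4-56.9) of 1870 NFKO enteroendocrine-like cells, with 1 and 17 cells left out. In cluster 8 the share was 78.0% (69.4-85.1) of 118 WT and 90.3% (85.4-94) of 206 NFKO cells, with 2 and 27 left out. Goblet-like cells, which are not known to make sucrase-isomaltase, gave 1.19% (0.574-2.19) in WT and 3.36% (2.51-4.39) in NFKO, and shares at or below these are read as background. Median depths were 12624 and 15441 UMIs in enteroendocrine-like, 3889 and 5387 in cluster 8, and 24234 and 21669 in goblet-like cells. Without thinning, Sis was seen in 77.0% and 80.8% of enteroendocrine-like, 89.2% and 95.3% of cluster 8, and 8.11% and 17% of goblet-like cells.

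Enteroendocrine-like clusters varied in Sis over a wide range. The lowest was cluster 18, led by Sst (somatostatin), at 19.5 CPM (7.15-42.4) in WT and 52.9 CPM (42.8-64.8) in NFKO. Cluster 3 was at 176 and 159 CPM, cluster 4, which carries Tac1, at 338 and 318 CPM, and cluster 5, which carries Gip, at 562 and 608 CPM. Sis was higher in cluster 7 (Gcg and Insl5; 1206 and 936 CPM), cluster 19 (Pyy; 1376 and 1258 CPM), cluster 20 (Nts; 887 and 1866 CPM), cluster 12 (Cartpt; 884 and 1392 CPM) and cluster 22 (Mc4r; 2450 and 1891 CPM). The first 4 of these clusters kept the same order in both libraries, while the order of the last 5 differed between them, with the Mc4r cluster highest in both. Counting intervals of neighbours in that order overlapped for the Cartpt and Nts clusters in WT and for the Nts and Mc4r clusters in NFKO. Cluster 12 also held 3 of 10 enterocyte markers beside 6 of 10 enteroendocrine ones, and its place among the clusters rests on that naming.

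**Figure D2:**
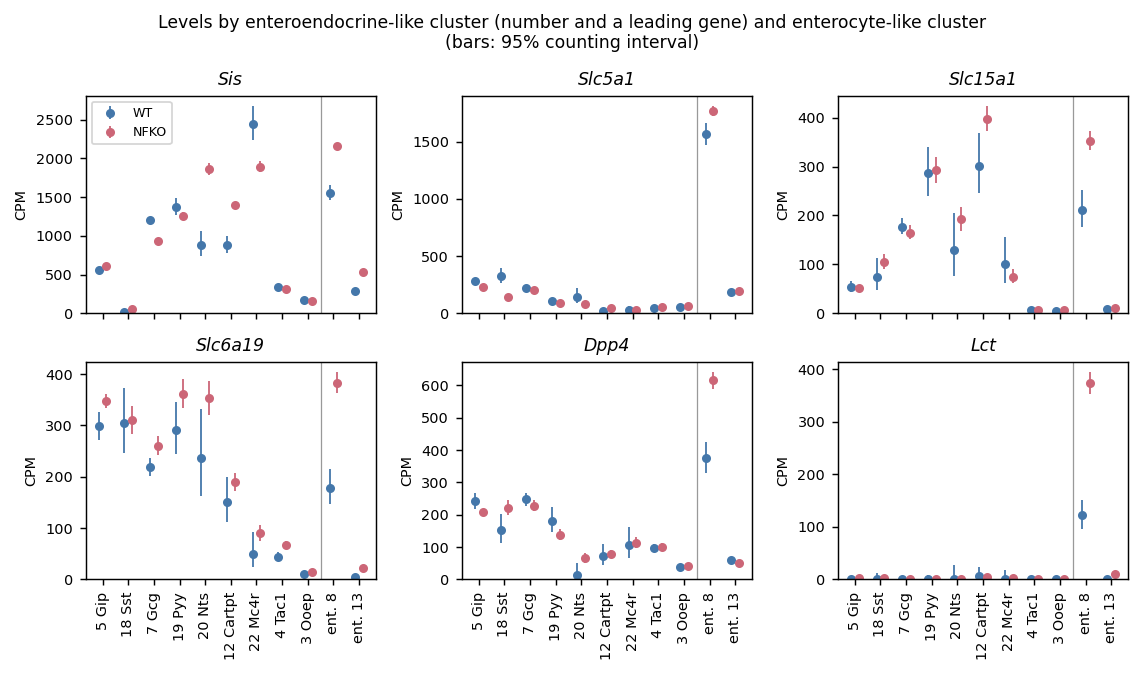
Level in CPM of 6 members in the 9 enteroendocrine-like clusters (number and a leading gene) and, right of the line, in the enterocyte-like clusters 8 and 13, with WT and NFKO as points and 95% counting intervals as bars. Sis, Slc5a1, Slc15a1, Slc6a19 and Dpp4 differ between enteroendocrine-like clusters, and Lct stays near 0 in all 9.

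Among the transporters, the same split appeared. Slc5a1 encodes SGLT1, the sodium-coupled carrier that brings in glucose and galactose. It was at 1565 CPM (1469-1666) in WT and 1770 CPM (1726-1814) in NFKO cells of cluster 8, and at 138 CPM (131-146) and 121 CPM (117-125) in enteroendocrine-like cells. Within those, Slc5a1 was at 279 and 226 CPM in the Gip cluster, at 217 and 207 CPM in the Gcg cluster and at 328 CPM (267-398) and 141 CPM (124-159.9) in the Sst cluster. Its levels in the Cartpt and Mc4r clusters were 22 to 45.9 CPM. Slc2a2 encodes GLUT2, which passes hexoses across the basolateral membrane, and was at 82.1 and 295 CPM in cluster 8 and at or below 1.72 CPM in the secretory, tuft-like and stem-like classes. Slc2a5 encodes GLUT5, the fructose carrier, and was at 33.2 and 72.9 CPM in cluster 8 and 37.9 and 35.0 CPM in enteroendocrine-like cells.

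Slc15a1 encodes PEPT1, the proton-coupled carrier of di- and tripeptides, and Slc6a19 encodes B0AT1, a sodium-coupled carrier of neutral amino acids. Slc15a1 was at 212 CPM (177-251) in WT and 352 CPM (333-372) in NFKO cells of cluster 8, at 8.68 and 10.9 CPM in cluster 13, and at 82.8 CPM (77.4-88.6) and 103 CPM (99.1-107) in enteroendocrine-like cells. Within the latter, Slc15a1 ran from 4.96 to 7.38 CPM in clusters 3 and 4 up to 287 and 292 CPM in the Pyy cluster and 302 and 398 CPM in the Cartpt cluster. Slc6a19 was at 178 CPM (147-215) and 383 CPM (363-404) in cluster 8, at 4.96 and 23.0 CPM in cluster 13, and at 144 CPM (136-151) and 202 CPM (197-208) in enteroendocrine-like cells. In the Gip, Sst and Pyy clusters Slc6a19 was between 291 and 361 CPM in both libraries, and in cluster 3 it was at 10.4 and 13.9 CPM. Slc7a9, the light chain of the carrier of cystine and dibasic amino acids, was at 156 and 274 CPM in cluster 8, 104 and 112 CPM in cluster 13 and 1.35 and 3.21 CPM in enteroendocrine-like cells. Its partner chain Slc3a1 was at 123 and 112 CPM in cluster 8 and 11.6 and 18.4 CPM in enteroendocrine-like cells.

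The 7 peptidases were led in reach by Dpp4 and Anpep. Dpp4, dipeptidyl peptidase 4, which inactivates GLP-1 and GIP, was at 374 and 615 CPM in cluster 8, at 58.7 and 50.7 CPM in cluster 13 and at 147 CPM (139.9-155) and 135 CPM (131-139) in enteroendocrine-like cells. It was at 241 and 207 CPM in the Gip cluster and 247 and 228 CPM in the Gcg cluster. Anpep, aminopeptidase N, was at 2492 and 2838 CPM in cluster 8, 445 and 444 CPM in cluster 13 and 211 and 172 CPM in enteroendocrine-like cells. The other 5 were low in enteroendocrine-like cells: Enpep (aminopeptidase A), the meprins Mep1a and Mep1b, Ace (angiotensin-converting enzyme) and Ggt1 (gamma-glutamyltransferase) were between 1.44 and 17.4 CPM there, against 172 to 1137 CPM in cluster 8.

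Among the enteroendocrine-like clusters Mep1a was highest in the Sst cluster, which held 36 WT and 114 NFKO cells. It was at 38.9 CPM in WT and 109 CPM in NFKO cells there, and at or below 27.0 CPM in each of the other 8 in both libraries. The WT value rests on those 36 cells. The enterocyte-like cluster 13 had 37.8 and 23.9 CPM of Mep1a.

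In goblet-like, Paneth-like and stem-like cells structural genes stood closer to their enterocyte-like level than enzymes and carriers did. The microvillus core genes in goblet-like cells were at a median of 41.1% of their enterocyte-like level in WT and 33% in NFKO, and the intermicrovillar adhesion genes at 61.4% and 61.5%. For the disaccharidases the same median was 1.73% and 1.36%, for the peptidases 1.00% and 1.47%, for the sugar transporters 1.63% and 1.45% and for the amino acid and peptide transporters 3.5% and 4.12%. Paneth-like cells had 14.2% and 8.6% of the enterocyte-like level for the core genes and 24.7% and 19.7% for the adhesion genes, and medians of 0.873% to 2.01% for the enzymes and carriers. In stem-like cells the medians were 27.3% and 18.2% for the core and 27.1% and 17.9% for the adhesion genes. Enteroendocrine-like cells differed from this order. The amino acid and peptide transporters were at a median of 167% in WT and 47.4% in NFKO, above the core genes at 67.1% and 30.9%. The adhesion genes were at 97% and 55.5% and the peptidases at 8.26% and 2.72%. All these percents are of the sum of clusters 8 and 13, and most WT UMIs in it come from cluster 13. In WT cluster 13 Slc15a1 and Slc6a19 were at 8.68 and 4.96 CPM. In WT cluster 8 they were at 212 and 178 CPM, above their enteroendocrine-like 82.8 and 144 CPM.

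**Figure D3:**
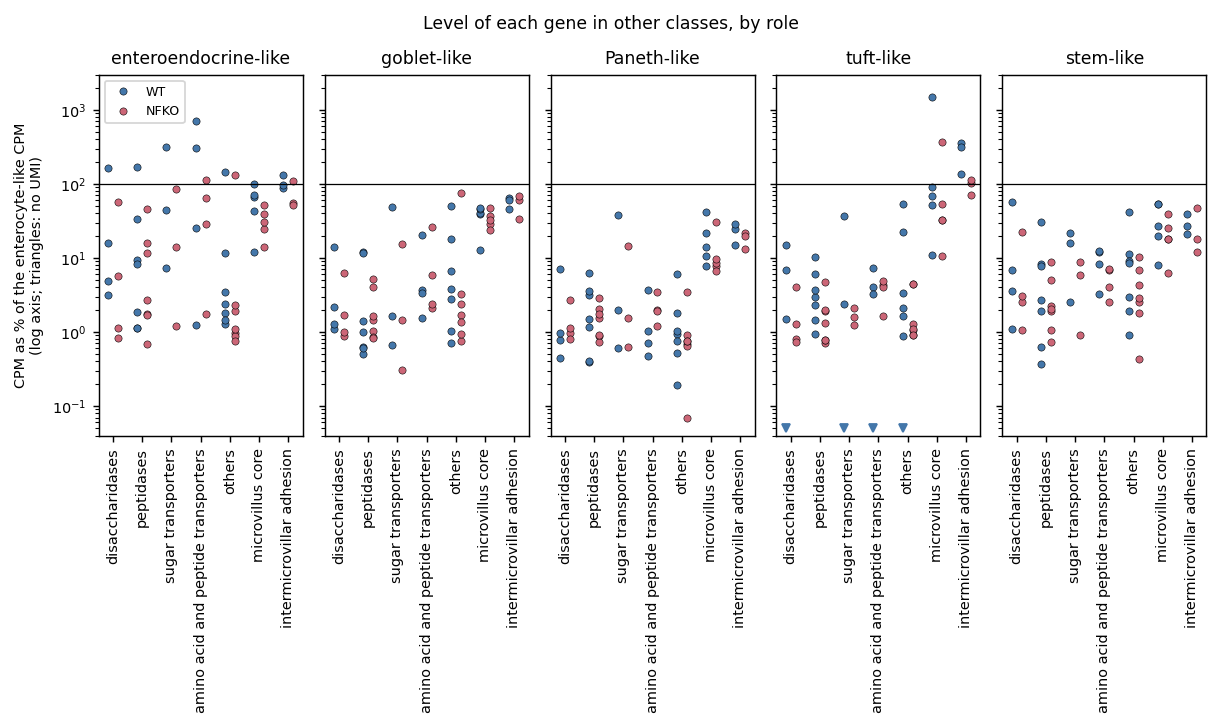
Level of each member in 5 other classes as a percent of its enterocyte-like level (log axis, line at 100%), grouped by role, with 1 point per gene and library and triangles for genes with no UMI. Core and adhesion genes mostly sit higher than the enzymes in goblet-like, Paneth-like, tuft-like and stem-like cells, and some transporters reach or pass the line in enteroendocrine-like cells.

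Tuft-like cells carried several structural genes at high level and few UMIs of most enzymes. Espn encodes espin, which cross-links actin bundles. It was at 829.9 CPM (763-902) in WT and 814 CPM (777-851) in NFKO tuft-like cells, against 368 and 472 CPM in cluster 8, 24.6 and 29.6 CPM in cluster 13 and 4.38 to 85.8 CPM in the other classes described. At 2000 UMIs Espn was seen in 79.3% (68.9-87.4) of 82 WT and 76.5% (68.9-82.9) of 153 NFKO tuft-like cells, with 7 and 19 left out, and in 3.11% and 15% of goblet-like cells. The unthinned shares were 92.1% and 89.5% in tuft-like and 10.3% and 41.9% in goblet-like cells, and the median depths of tuft-like cells were 6098 and 14639 UMIs. Cdhr5 and Cdhr2, the protocadherins of the microvillus tip, were at 1165 and 416 CPM in WT and 656 and 202 CPM in NFKO tuft-like cells. Vil1, villin, was at 435 CPM (387-488) and 423 CPM (397-451) in tuft-like cells.

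In WT 3 members (Espn, Cdhr2 and Cdhr5) were 2-fold or more higher in tuft-like than in enterocyte-like cells, as were 26.7% of all genes. In NFKO Espn alone was (27.7% of all genes). Against WT cluster 8 alone only Espn was, at 829.9 CPM in WT tuft-like cells and 368 CPM in cluster 8. Cdhr2 was at 416 and 445 CPM and Cdhr5 at 1165 and 1008 CPM. The enterocyte-like sum holds its clusters in different shares in WT and NFKO. The part of these shares in the contrast between libraries was not tested. Not every structural gene was high in tuft-like cells. Eps8, which caps and bundles actin, was at 16.3 and 19.3 CPM in tuft-like cells and 56.8 to 100.4 CPM in the secretory classes. Krt20, a keratin of mature villus cells, was at 14.8 and 24.5 CPM. Alpi, Lct, Slc2a2 and Slc15a1 had 0 UMIs in the WT tuft-like cells, where 3 counts would be 4.45 CPM.

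Among the remaining structural genes, Myo1a was at 763 and 759 CPM in cluster 8, 359 and 263 CPM in cluster 13, 269 and 155 CPM in tuft-like and 162 and 178 CPM in goblet-like cells, and between 30.9 and 86.6 CPM in the enteroendocrine-like, Paneth-like and stem-like classes. Ezr, ezrin, was at 518 and 789.8 CPM in cluster 8, 30.3 and 30.6 CPM in Paneth-like cells and between 102 and 152 CPM in the enteroendocrine-like, goblet-like, tuft-like and stem-like classes. Ush1c, harmonin, the scaffold that anchors the protocadherins, was at 172 and 132 CPM in cluster 8, 134 and 121 CPM in tuft-like, 94.2 and 115 CPM in enteroendocrine-like and 14.6 and 21 CPM in Paneth-like cells.

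Several members without a structural role were enterocyte-like in their levels. Alpi was at 231 CPM (195-271) in WT and 525 CPM (501-549.6) in NFKO cells of cluster 8, at 58.9 and 185 CPM in cluster 13, and at or below 5.98 CPM in the secretory, tuft-like and stem-like classes. Gda was at 685 and 1004 CPM in cluster 8 and at or below 16.4 CPM in those classes. Maf, a transcription factor of the bZIP family, was at 679 and 681 CPM in cluster 8, 164 and 146 CPM in cluster 13 and at or below 12.1 CPM in those classes. Clca4b was at 603 and 823 CPM in cluster 8 and at or below 18.7 CPM in them, and Tmigd1, an adhesion protein of the immunoglobulin superfamily, at 115 and 223 CPM and at or below 7.42 CPM. S100g was less bound to cluster 8, with 22.5 CPM (20.2-25.1) in WT and 62.4 CPM (57.5-67.6) in NFKO stem-like cells.

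Krt20 was high in more than 1 class. It was at 1188 CPM in WT and 907 CPM in NFKO cells of cluster 8, at 631 CPM (616-647) and 706 CPM (696-715) in enteroendocrine-like and at 222 and 406 CPM in goblet-like cells. Among goblet-like clusters Krt20 was at 1021 and 896 CPM in cluster 1, led by Ido1 and Ly6m, and at 157 to 202 CPM in clusters 0 and 2. Cdhr5 was likewise at 529 and 717 CPM in cluster 1 and 229 to 245 CPM in clusters 0 and 2. Espn was at 87.7 and 148 CPM in cluster 1, against 2.05 to 25.4 CPM in the others. Of the 838 WT goblet-like cells 91 were in cluster 1, and of the 1560 NFKO ones 794 were, so a goblet-like value sums different clusters in the libraries.

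Counted per cell at 2000 UMIs, a median of 15 members was seen in WT and 20 in NFKO cells of cluster 8. The medians were 6 and 6 in cluster 13, 4 and 4 in enteroendocrine-like, 4 and 3 in tuft-like, 2 and 3 in goblet-like, 2 and 2 in stem-like and 1 and 1 in Paneth-like cells. The quartiles of cluster 8, 12 to 18.8 in WT and 17 to 22.8 in NFKO, did not overlap those of any other class shown.

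**Figure D4:**
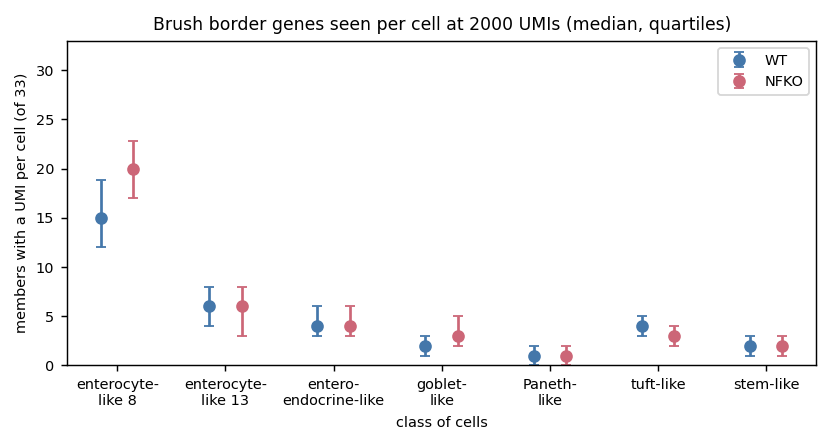
Number of the 33 genes with at least 1 UMI per cell after thinning to 2000 UMIs, as the median (point) and quartiles (bars) in 7 classes for WT and NFKO. Cluster 8 has medians of 15 and 20, and no other class passes 6.

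NFKO was then set beside WT within the enterocyte-like class. A gene is counted as higher or lower between libraries at 1.5-fold or more, among genes with at least 20 UMIs over both. Over both clusters together 28 of 33 members were higher in NFKO (12.1% of all genes) and 0 were lower (10.6%), and the median log2 ratio of the members was 1.30, beside -0.02 for all genes. The remaining 5 were Slc3a1, Myo1a, Ush1c, Eps8 and Krt20, at ratios of 1.10 to 1.39. This sum, however, holds the 2 clusters in different parts. Cluster 8 gave 633136 of 7084271 enterocyte-like UMIs in WT and 3512097 of 8203732 in NFKO, and each cluster is therefore described alone. These values were computed by cluster after the sum was seen.

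Within cluster 8, 14 members were higher in NFKO and 0 lower, where 29.8% of all genes were higher and 20.8% lower, and the median ratio was 1.36 beside 1.07 for all genes. Within cluster 13, 8 were higher (10.8% of all genes) and 2 lower (9.78%), and the median ratio was 0.975 beside 1.02. The members that were higher in both clusters were Alpi, Lct, Treh, Slc2a2, Slc2a5, Slc6a19 and S100g, and Sis was the remaining one in cluster 13. In cluster 8 Mep1b, Ace, Dpp4, Slc15a1, Slc7a9, Ezr and Tmigd1 also passed the limit, at ratios of 1.52 to 1.93. The core genes other than Ezr, and all 3 adhesion genes, stayed between the 1.5-fold limits in both clusters. Deep cells weigh most in a sum. Cluster 8 held 633136 UMIs over 120 WT cells (median 3889) and 3512097 over 233 NFKO cells (median 5387). With cells weighted equally, the ratios of 30 members in the enterocyte-like sum moved outside their counting intervals. Equal weighting was not done by cluster.

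S100g encodes calbindin-D9k, a calcium-binding protein of proximal enterocytes. It was at 64.8 CPM (46.5-87.9) in WT and 1749 CPM (1706-1793) in NFKO cells of cluster 8, a ratio of 27.0 (19.9-37.7). In cluster 13 it was at 52.7 CPM (47.3-58.6) and 292 CPM (277-308), a ratio of 5.54 (4.91-6.25). S100g lies on chromosome X (162961992 to 162964599), and the libraries differ in sex. At 2000 UMIs it was seen in 5.93% (2.42-11.8) of WT and 25.7% (19.9-32.3) of NFKO cells of cluster 8, and in 1.91% and 3.56% of goblet-like cells. Without thinning these shares were 10.0% and 48.9% in cluster 8 and 8.23% and 18.4% in goblet-like cells.

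Slc2a2 had the next largest ratio in cluster 8, 3.60 (2.72-4.85), and in cluster 13 it was at 0.620 CPM from 4 UMIs in WT and 17.5 CPM in NFKO. Its ratio there, 28.2 (10.6-106), rests on those 4 UMIs. Lct was 3.08 times (2.44-3.92) higher in NFKO in cluster 8 and 7.18 times (3.48-16.7) in cluster 13, the latter from 9 and 47 UMIs. Alpi was higher by 2.28 times (1.92-2.71) and 3.14 times (2.78-3.56). Slc6a19 was higher by 2.15 times (1.77-2.63) and 4.64 times (3.10-7.12). Sis had a ratio of 1.39 (1.30-1.49) in cluster 8 and 1.88 (1.77-1.99) in cluster 13.

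Other members differed little or differed by cluster. Vil1 had a ratio of 0.914 (0.852-0.981) in cluster 8 and 0.970 (0.911-1.03) in cluster 13, Myo1a 0.995 (0.903-1.10) and 0.734 (0.684-0.787), and Krt20 0.763 (0.705-0.828) and 0.736 (0.687-0.789). Slc5a1 was at 1.13 (1.06-1.21) and 1.07 (0.976-1.16), and Anpep at 1.14 (1.08-1.2) and 0.998 (0.943-1.06). Clca4b, a member of the CLCA family of secreted proteins, had a ratio of 1.36 (1.22-1.52) in cluster 8 and was lower in NFKO in cluster 13, at 0.329 (0.279-0.386). Mep1a likewise had 1.30 (1.07-1.61) in cluster 8 and was lower in cluster 13, at 0.631 (0.5-0.793). Just past the 1.5-fold limit in cluster 8 was Ezr at 1.52 (1.36-1.71), and just short of it Gda, guanine deaminase, at 1.46 (1.33-1.62).

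**Figure D5:**
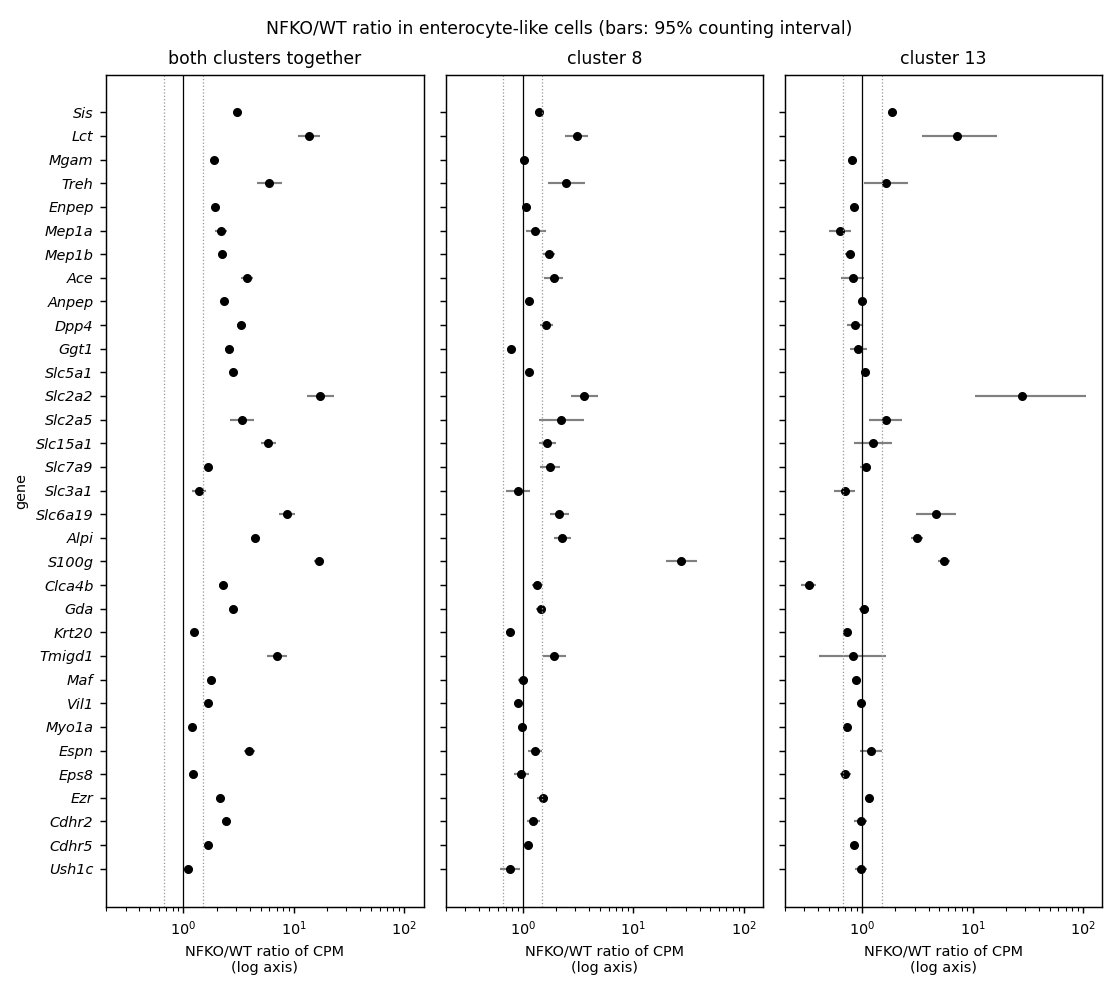
NFKO/WT ratio of CPM for each member (log axis) in the 2 enterocyte-like clusters together, in cluster 8 and in cluster 13, with 95% counting intervals as bars, a solid line at 1 and dotted lines at the 1.5-fold limits. Most points lie right of the limit in the sum, while in cluster 13 most lie between the limits and S100g, Slc2a2 and Lct lie far right.

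Some genes that mark position along the intestine and the state of the cells moved beside these ratios. Of 5 genes of the proximal intestine 3 were higher in NFKO in cluster 8 and 0 lower, where 29.8% and 20.8% of all genes were. Fabp1 was at 6.64 times (6.19-7.13), Apoa4 at 3.78 times (3.47-4.13) and Cyp2b10 at 3.92 times (2.26-7.46). Fabp1 and Apoa4 are also among the enterocyte markers. Gata4 and Onecut2 stayed between the 1.5-fold limits, at 0.808 times (0.544-1.23) and 0.893 times (0.641-1.27). In cluster 13 Fabp1 was at 3.4 times (3.26-3.55). Of 5 ileal genes 2 were lower in cluster 8 and 1 higher, and in cluster 13 2 of 4 were lower (9.78% of all genes). Fabp6 was at 0.527 times (0.514-0.541) in cluster 8 and 0.428 times (0.416-0.440) in cluster 13. In cluster 8 Fgf15 was at 0.451 times (0.306-0.675), while Slc51b was at 1.86 times (1.59-2.18) and Slc51a at 1.23 times (1.10-1.37). The 10 enterocyte markers summed to 15153 CPM in WT and 54140 CPM in NFKO cells of cluster 8, and to 3502 and 6998 CPM in cluster 13, with no marker at 0. Of 4 villus tip genes with enough UMIs Ada and Slc28a2 were higher in NFKO in cluster 8, at 8.47 times (3.58-26.3) and 4.37 times (1.65-16.4), and none was in cluster 13. Of 7 stress genes 6 in cluster 8 and 5 in cluster 13 were lower in NFKO, where 20.8% and 9.78% of all genes were. Hspa1a was at 0.0431 times (0.0315-0.0581) in cluster 8 and 0.0582 times (0.0446-0.0748) in cluster 13, and Fos at 0.978 and 1.17 times. The lower Hspa1a was not confined to these clusters. It went from 398 to 39.4 CPM in enteroendocrine-like, 463 to 24.4 CPM in goblet-like and 102 to 4.40 CPM in Paneth-like cells. The median over cells of the mitochondrial share of UMIs was 16.1% and 9.90% in cluster 8 and 8.35% and 5.22% in cluster 13. Goblet markers, 8 in all, summed to 26781 and 13608 CPM in cluster 13 and were unevenly spread over its cells, with quartiles of 325 to 23059 CPM in WT and 844 to 9721 CPM in NFKO. In cluster 8 they went the other way, from 5351 CPM in WT to 13024 CPM in NFKO. The 10 enteroendocrine markers summed to 166 and 478 CPM in cluster 8, where 2 of them were at 0 in WT, and to 88.7 and 419 CPM in cluster 13, where 1 was. The 9 Paneth markers summed to 3761 and 2159 CPM in cluster 8 and to 1698 and 4064 CPM in cluster 13. The part of these differences in the members' ratios was not tested.

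Male-typed cells could be compared alone, though few NFKO cells remained. Cluster 8 held 45 male-typed WT and 16 male-typed NFKO cells, and cluster 13 held 128 and 12. Over both clusters, 25 members were then higher in NFKO and 0 lower, with a median log2 ratio of 1.12. The share and the median of all genes were not computed in male-typed cells, so the count has no background beside it. The shares of the 2 clusters in that sum still differed.

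Outside the enterocyte-like class, NFKO/WT ratios followed 2 patterns. In enteroendocrine-like cells 13 of the 32 members with enough UMIs were higher in NFKO (8.79% of all genes) and 0 lower (8.35%). The members these cells carry at high level differed little: the ratio was 1.08 (1.05-1.11) for Sis, 0.875 (0.823-0.931) for Slc5a1, 0.917 (0.864-0.974) for Dpp4, 0.814 (0.774-0.856) for Anpep and 1.24 (1.15-1.34) for Slc15a1. Slc6a19 was at 1.41 (1.33-1.49). The 13 that passed the limit were low in these cells in both libraries, at 18.4 CPM or less, with the exception of Espn at 55.8 and 85.8 CPM.

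In goblet-like cells 23 of 32 members were higher in NFKO (10.1% of all genes) and 0 lower (7.52%), in Paneth-like cells 19 of 30 were (12.7%), and in stem-like cells 11 of 30 were (6.25%). Most of these were also at low level. Lct went from 0.158 to 1.66 CPM in goblet-like and from 0.0946 to 1.33 CPM in Paneth-like cells, and Alpi from 0.527 to 2.51 CPM and from 0.142 to 2.26 CPM. Sis went from 4.38 to 11 CPM and from 1.80 to 12.1 CPM. Cluster 8, where these genes are highest, held 0.804% of all UMIs in WT and 3.16% in NFKO, and cluster 13 held 8.19% and 4.22%. The part of free RNA in these low values was not tested. In goblet-like cells Espn went from 7.01 to 51.4 CPM and Krt20 from 222 to 406 CPM. Cluster 1 held a larger share of these cells in NFKO, as given above. Within cluster 1 Espn was also higher in NFKO, and Krt20 was not. The part of the cluster shares in these differences was not tested.

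In tuft-like cells 18 members had enough UMIs. Of these 7 were higher in NFKO (20.1% of all genes) and 3 lower (19.4%), the latter a share near that of all genes. The 3 lower were Myo1a at 0.578 (0.482-0.695), Cdhr2 at 0.485 (0.418-0.565) and Cdhr5 at 0.563 (0.516-0.615), while Espn was at 0.980 (0.892-1.08) and Vil1 at 0.973 (0.853-1.11). The intervals of all 7 that were higher include 1.

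Another 73 genes, listed by function as brush border transporters, hydrolases and structural genes, with 13 transcription factors of the epithelium, were counted in the same way. Over secretory cells 48 of 69 with enough UMIs were higher in enterocyte-like cells in WT and 48 of 70 in NFKO, with 3 lower in each, where 17.9% and 14.1% of all genes were higher. By function, 20 of 23 transporters were higher in WT and 11 of 20 structural genes were. Between libraries 35 of 69 were higher in NFKO in the enterocyte-like sum and 0 lower, beside 12.1% and 10.6% of all genes. In cluster 8, 22 of 68 were higher and 10 lower, where 29.8% and 20.8% of all genes were, so the share higher was near that of all genes. In cluster 13, 4 of 64 were higher and 9 lower, where 10.8% and 9.78% of all genes were.

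Of those with at least 100 UMIs, the highest ratios in the enterocyte-like sum were those of Mme (neprilysin) at 12 (9.93-14.6), Pdzk1 (a scaffold of apical transporters) at 11.6 (9.03-15.2), Cubn (cubilin, the receptor for intrinsic factor) at 10.3 (6.89-16.0), Asah2 (neutral ceramidase) at 6.17 (5.42-7.05) and Ada (adenosine deaminase) at 6.16 (4.34-9). The lowest were Slc1a1 at 0.682 (0.588-0.790), Klf5 at 0.690 (0.659-0.721), Myo1d at 0.757 (0.695-0.825), Myo6 at 0.760 (0.706-0.819) and Hnf4a at 0.783 (0.726-0.844). Slc1a1 is a glutamate carrier, Myo1d and Myo6 are myosins, and Klf5 and Hnf4a are transcription factors of the epithelium. These ratios are of the sum, which holds the 2 clusters in different parts. In cluster 8 alone Mme was at 2.99 (2.42-3.74), Pdzk1 at 2.56 (1.97-3.37) and Cubn at 2.21 (1.47-3.46). Asah2 was at 1.99 (1.69-2.36) there and Ada at 8.47 (3.58-26.3). The 5 lowest were at 0.538 (Myo6) to 0.770 (Myo1d) in cluster 8.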

How the data were processed

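Tomato+ cells of mouse small intestine were profiled in 2 libraries, WT and NFKO, with no replicate. The authors deposited UMI counts per gene and barcode. The submitters' processing notes name Cell Ranger 5.0.1 and mm10, and the filter behind the deposited barcodes is not given in the sources used here. The files held 5051 barcodes and 90002878 UMIs for WT and 7540 barcodes and 124300388 UMIs for NFKO. Cells were required to show 500 genes and 1000 UMIs or more, with no more than 25% of UMIs from mitochondrial genes (35.6% of WT and 17.3% of NFKO barcodes exceeded that limit). The automatic threshold of Scrublet marked 2 and 0 doublets and had not worked, so the 126 and 340 highest scores were removed (0.8% per 1000 barcodes). Clusters came from Seurat 5.3.0 in R 4.3.3 (2000 variable genes, 30 principal components), leaving out the 33 members and 10 other genes (Foxo1, Ins1, Ins2, Iapp and genes that differ by sex). A cluster was named when at least 3 markers were 2-fold higher than elsewhere and seen in 10% of its cells, and 21 of 24 clusters were named. Where the median depth was below the library's median divided by 3 in both libraries, a marker also had to be among the 10 leading genes. Cluster 9, with 8 of 10 enteroendocrine markers, was left unnamed by this rule. Cluster 8 was as shallow and kept its name through Apoa4. The members and all gene lists were chosen with earlier results of these data known.

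UMIs were summed per class and library. Intervals are exact at 95% (Poisson for levels, conditional binomial for ratios, Clopper-Pearson for shares of cells) and cover counting error only. A gene at 0 was set to 3 counts for ratios, which are then bounds. With 1 library per group no test was possible, and genes are counted by fold. Gene positions are from GENCODE on GRCm38 and promoters from RefSeq on GRCm38.p6. All 33 members are accounted for, and of the 73 other brush border genes the 5 highest and 5 lowest ratios with at least 100 UMIs are named. The ratio step was tested on simulated data. The alternatives were other size factors, count minimums, cell filters, doublet treatment, clusterings and seeds, a marker score per cell, equal weight per cell and male-typed cells alone, and, chosen after seeing the data, each enterocyte-like cluster alone and the low-depth cluster 9 counted as enteroendocrine-like.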

Additional observations from a re-analysis of the deposited data

Results flagged for a closer look

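In 4 members the NFKO/WT ratio passed the 1.5-fold limit in opposite directions in different cells, with counting intervals that leave out 1 on both sides. With 1 library per genotype the difference itself was not tested. The share of all genes that do the same was not counted. Mep1a was at 0.631 (0.5-0.793) in cluster 13 and at 3.69 (2.75-5.06) in enteroendocrine-like and 2.99 (1.22-8.79) in goblet-like cells. Clca4b was at 0.329 (0.279-0.386) in cluster 13 and 3.03 (2.06-4.58) in goblet-like cells. Cdhr2 was at 0.485 (0.418-0.565) in tuft-like and 1.80 (1.68-1.94) in goblet-like cells, and Cdhr5 at 0.563 (0.516-0.615) and 1.60 (1.55-1.66). The goblet-like levels of Mep1a were 0.316 CPM in WT and 0.944 CPM in NFKO, from 6 and 29 UMIs. Those of Clca4b were 1.69 and 5.11 CPM, and the part of free RNA in these low values was not tested. The goblet-like values of Cdhr2 and Cdhr5 sum clusters that hold different shares of the libraries.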

How the results depend on the processing

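Counts of members higher in enterocyte-like than in secretory, tuft-like or stem-like cells stayed within 1.5 times the reported count under every alternative other than the single clusters below, at 23 to 30 of 33 over secretory cells in WT and 27 to 31 in NFKO. The count higher in NFKO than in WT enterocyte-like cells was 24 to 28, with 0 lower under each. Shares of all genes were not counted again under the alternatives. The median log2 ratio, 1.30 as reported, was 1.05 with cells weighted equally and 1.12 in male-typed cells alone, outside the counting interval of the middle gene.

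The comparison of libraries differed by cluster. With cluster 8 alone the median log2 ratio was 0.45 and 14 members were higher. With cluster 13 alone it was -0.04, with 8 higher and 2 lower, and 19 members were higher than in NFKO secretory cells. Of the 28 members past the 1.5-fold limit in the sum, the ratio turned below 1 in cluster 8 for Ggt1 (0.789) and Vil1 (0.914). In cluster 13 it did so, among the same 28, for Mgam (0.817), Enpep (0.838), Mep1a (0.631), Mep1b (0.774), Ace (0.825), Anpep (0.998), Dpp4 (0.863), Ggt1 (0.925), Clca4b (0.329), Vil1 (0.970), Cdhr2 (0.975), Cdhr5 (0.853), Tmigd1 (0.825) and Maf (0.889). The 5 members within the limit in the sum (Slc3a1, Myo1a, Ush1c, Eps8 and Krt20) were below 1 in both clusters, at 0.763 to 0.995 in cluster 8 and 0.696 to 0.981 in cluster 13. In the sum, which holds the clusters in different shares, these 5 were at 1.10 to 1.39. Alpi, Lct, Treh, Slc2a2, Slc2a5, Slc6a19 and S100g were past the 1.5-fold limit in both clusters. The part of the cluster shares in the contrast between libraries was not tested. Members past the 1.5-fold limit in the sum kept their direction under all alternatives other than the single clusters. No paired analysis was possible because each group has 1 library, and for the same reason no replicate could be left out. Depth limits the tuft-like class in WT, where 1 UMI is over 1 CPM.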
